A study of Mus musculus with 10 samples.

Results

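Immunoglobulin kappa (Igk) light chain joins with a long, readable CDR3 made up 8018 of the 110997 in-frame counts in the table, or 7.22% of them pooled. A join was taken as long and in-frame when the CDR3 had a length that is a multiple of 3, at least 30 nucleotides, and no stop codon read from its first base. Distinct combinations of V segment, J segment and CDR3 nucleotides are called clonotypes here. The long joins were 1992 of 12157 distinct in-frame clonotypes and of 23998 clonotypes in all.

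The samples were small pre-B cells, purified by flow cytometry straight from the bone marrow of C57Bl6 mice aged 6 to 12 weeks. RNA was extracted, Igk joins were amplified, and paired reads of 151 bases were sequenced. There were 5 wild type (WT) samples and 5 samples labelled rsCBE, the strain that the series' design text writes as ΔrsCBE. The labels do not spell out that name, give no treatment, and do not say how many mice a sample holds. Each count is one unit of the authors' table, and the sources used here do not say whether it stands for a read or a molecule. Nothing states that the replicates came from separate mice, so p-values measure the spread between these samples, which may be technical. The table holds only Igk joins, so the labelled cell type could not be checked against marker genes.

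The Igk locus joins 1 of many V segments to 1 of a few J segments by RAG-mediated cutting and end joining, and the CDR3 of the light chain spans that junction. The cut ends are opened from hairpins, which can leave short palindromic (P) bases that mirror the end of the segment, and nucleases can trim them. Untemplated (N) bases are added by terminal transferase in heavy chain joins and are rare in mouse kappa joins. Kappa CDR3 loops therefore keep a narrow range of lengths in this species. Small pre-B cells are the stage at which the kappa locus is rearranged.

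The clonotypes below show the kinds of long join that the results describe. The first 5 were the long clonotypes found in all 10 samples, given with the bases outside the germline V end in capitals, 5′ to 3′ on the coding strand.
Igkv8-16 to J5: cagcagcatttacacattcctccGCTCACG
Igkv1-117 to J1: tttcaaggttcacatgttcctccGTGGACG
Igkv8-16 to J1: cagcagcatttacacattcctccGTGGACG
Igkv8-18 to J2: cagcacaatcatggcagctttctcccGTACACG
Igkv17-127 to J5: ttgcaaagtgataacatgcctctGCTCACG
In 4 of these the whole germline V end met the whole germline J start, with no base lost or added. The fourth, with Igkv8-18, had lost 2 bases of V and 1 of J, and was 33 nucleotides long. The next sequences were chosen after their values were seen, as examples of joins that carried added bases, and the capitals mark the added bases alone.
Igkv9-120 to J2: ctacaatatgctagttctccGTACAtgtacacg
Igkv2-137 to J2: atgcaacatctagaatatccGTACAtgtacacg
Igkv1-135 to J1: tggcaaggtacacattttccCACgtggacg
Igkv8-18 to J5: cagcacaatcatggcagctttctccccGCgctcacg
Igkv4-81 to J2: cagcagtggagtggttacccaccCATcacg
The first 4 of this set carried bases that mirror the start of the untrimmed J segment, and the last carried 3 bases that matched neither segment nor a palindrome. The Igkv9-120 join was found in 7 samples with 20 counts, and the Igkv2-137 join in 6 samples with 28 counts.

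In GRCm38 the J cluster is on the plus strand of chromosome 6, from 70722562 (start of J1) to 70723927 (end of J5). V segments named here lie on the same chromosome, between Igkv2-137 at 67555497-67556216 (plus strand) and Igkv3-1 at 70703578-70704177 (plus strand), and each is annotated as an immunoglobulin V gene. Of the genes that recur below, Igkv8-16 is at 70386672-70387252 (minus strand), Igkv8-18 at 70355852-70356445 (plus strand) and Igkv5-48 at 69726573-69727138 (minus strand).

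In-frame joins centred on 27 nucleotides, with 85427 counts at that length and 15308 at 24. Above the limit, counts dropped from 6760 at 30 nucleotides to 1125 at 33, 107 at 36 and 26 at 39 or more, and the longest CDR3 had 54. These lengths held 1599, 335, 44 and 14 distinct clonotypes. Among lengths of 30 or more that are a multiple of 3, 133 further counts had a stop codon, or 1.63% of them, beside 1.33% of shorter ones.

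In WT the long share of in-frame counts was 5.18%, 7.02%, 7.41%, 8.44% and 7.26% in replicates 1 to 5. In rsCBE it was 7.03%, 7.95%, 8.14%, 7.98% and 8.46%. The rsCBE values lay in a narrower band, and the groups overlapped. The means were 7.06% ± 1.19 (SD, n = 5) in WT and 7.91% ± 0.53 (SD, n = 5) in rsCBE, which did not pass a two-sided exact permutation test (p = 0.159). WT replicate 4 was the shallowest sample, with 3109 counts, of which 2037 were in-frame and 172 were long. Its 95% Wilson interval for the long share ran from 7.31% to 9.73%, which covers counting error only. Without that replicate the difference was 1.19 percentage points and passed (p = 0.0317, exact permutation test). Without WT replicate 1, the lowest sample, it was 0.376 points (p = 0.341, exact permutation test). With only part a of the replicates that came in 2 parts it was 1.22 points (p = 0.0238, exact permutation test), and with only part b 0.273 points (p = 0.627, exact permutation test). With each clonotype counted once the long share was 13.3% ± 2.79 in WT against 16.7% ± 1.41 in rsCBE (SD, n = 5), 3.37 points apart, which did not pass (p = 0.0556, exact permutation test). The other samples held 9161 to 24083 counts, with 470 to 1212 long counts each. None of the 4 length classes passed between genotypes. The 33-nucleotide class was 0.928% ± 0.161 of in-frame counts in WT against 1.19% ± 0.254 in rsCBE (SD, n = 5), with an adjusted p of 0.317 by the exact permutation test.

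**Figure D1:**
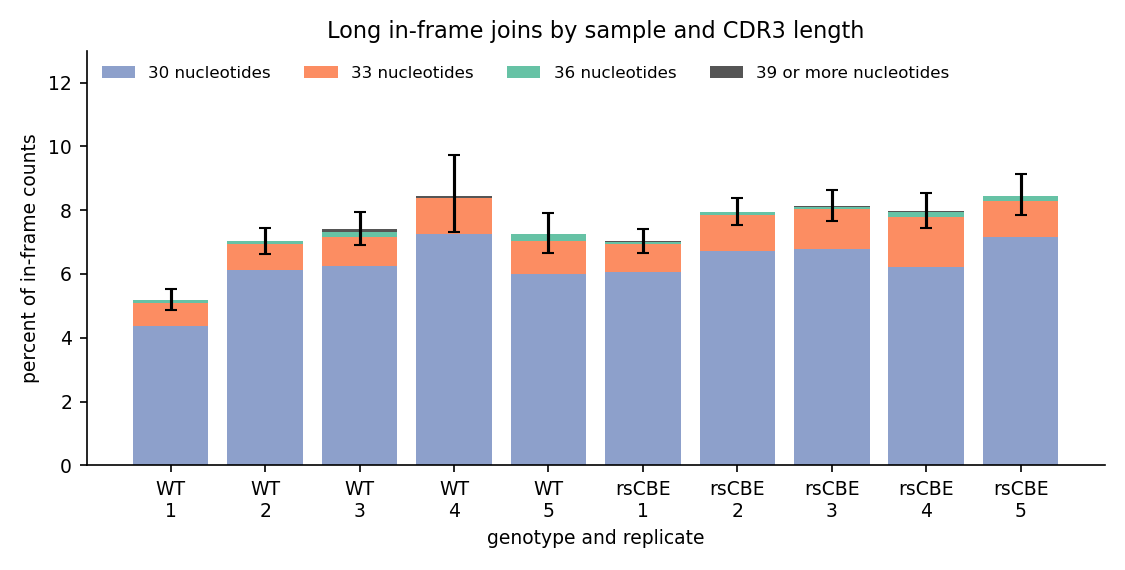
Stacked bars give the percent of in-frame counts at 30, 33, 36 and 39 or more nucleotides in each of the 10 samples; black bars are 95% Wilson intervals of the whole long share. WT replicate 1 is lowest at 5.18% and rsCBE replicate 5 highest at 8.46%, and WT replicate 4 has the widest interval.

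Most long joins were made of germline bases. Each CDR3 was split into the bases that match the germline V end, the bases that match the germline J start, P bases at an untrimmed end, and other bases. Of 111 V segments with a germline end, 74 carry 23 bases after the conserved cysteine codon, and J1, J3, J4 and J5 carry 7 bases before the conserved phenylalanine codon. A complete join of these is 30 nucleotides. J2 carries 8 bases, so the complete join of a 23-base V end with J2 is 31 nucleotides and out of frame.

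Complete germline joins made up 33.5% ± 5.81 of long counts (SD, n = 10), and joins that were only trimmed 25.5% ± 2.51. A further 26.5% ± 5.13 had P bases as their only added bases, and 14.5% ± 2.64 had other added bases. Because length chose these joins, the split is a description. At 27 nucleotides 93.0% ± 1.35 of counts were only trimmed and 0.0659% ± 0.0616 were complete (SD, n = 10). At 30 nucleotides 39.5% ± 6.41 were complete, and 25.2% ± 2.83 were only trimmed (SD, n = 10). At 33 nucleotides 53.4% ± 10.8 had P bases alone and 31.1% ± 10.5 were only trimmed (SD, n = 10). Igkv8-18, whose germline end has 28 bases, held 358 of the 1125 counts at that length, and without it 79.5% ± 15.2 had P bases alone and 0.0758% ± 0.240 were only trimmed (SD, n = 10).

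Most long counts had no P bases at the J end, with 75.0% for J1, 60.8% for J2, 68.2% for J4 and 84.1% for J5. Where P bases were present, their most frequent number was 3 for J1 and 2 for J2, J4 and J5. The frame and length that chose the joins also restrict these numbers, so they are not read as properties of the J segments. A complete join of a 23-base V end is 30 nucleotides with J1 and 31 with J2. With J1, 267 of the long counts carried 3 P bases, or 16.7%, and 2.75% carried 2. With J2, 17.1% carried 2 and 12.6% carried 5 or more, while 1.63% carried 4. With J4, 23.6% carried 2 and 1.61% carried 3. With J5, 8.19% carried 2, 1.85% carried 3 and 2.29% carried 4. The Igkv9-120 and Igkv2-137 joins printed above are examples with 5 P bases at J2, and the Igkv1-135 join is an example with 3 at J1.

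Added bases per long count, P and other together, averaged 1.36 ± 0.160 in WT against 1.22 ± 0.158 in rsCBE (SD, n = 5; p = 0.222, exact permutation test). WT samples lay between 1.22 and 1.60, and rsCBE samples between 0.992 and 1.38.

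**Figure D2:**
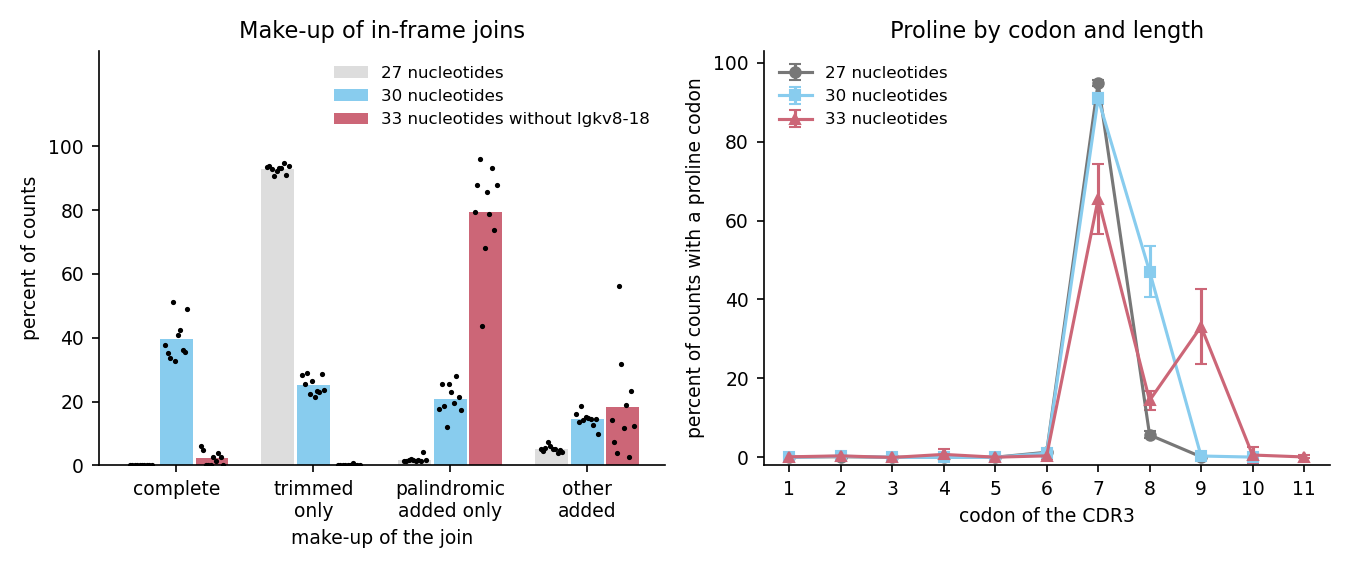
Left, mean percent of counts in each kind of join at 27, 30 and 33 nucleotides (bars; 33 without Igkv8-18), with 1 point for each of the 10 samples; right, percent of counts with a proline codon at each codon of the CDR3, as mean ± SD over the 10 samples. Trimmed joins lead at 27, complete joins at 30 and, with Igkv8-18 left out, P-base joins at 33. The right panel includes Igkv8-18, which gives the codon 9 peak, and the second proline position, codon 8, is at 47.1% at 30 nucleotides and 5.70% at 27.

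Long joins of 30 nucleotides often carried a second proline. Proline near the V end is a standard feature of kappa CDR3 loops, where it shapes the turn. At 27 nucleotides codon 7 was proline in 94.8% ± 0.883 of counts and codon 8 in 5.70% ± 0.888 (SD, n = 10). At 30 nucleotides codon 7 was proline in 90.9% ± 1.43 and codon 8 in 47.1% ± 6.56 (SD, n = 10). Both codons together were proline in 45.02% ± 6.59 of 30-nucleotide counts and 5.48% ± 0.871 of 27-nucleotide counts (SD, n = 10). A 23-base germline end that closes with cc, as that of Igkv8-16 does, gives proline at codon 8 when untrimmed. Whole V ends were 66.3% ± 5.05 of 30-nucleotide counts and 15.9% ± 1.23 of 27-nucleotide counts (SD, n = 10). Because length chose the joins, this contrast is a description. At 33 nucleotides codon 9 was proline in 33.2% ± 9.48, and that peak belonged to Igkv8-18. It was 99.6% ± 0.940 for Igkv8-18, which had no proline at codon 7, and 0.581% ± 1.29 for the other segments, which had 97.7% ± 3.11 at codon 7 and 22.04% ± 5.69 at codon 8 (SD, n = 10). The number of proline codons per long count was 1.36 in both genotypes (SD 0.0942 in WT and 0.00865 in rsCBE, n = 5; p = 1, exact permutation test). WT replicate 4 was highest at 1.53, and the other WT samples lay between 1.29 and 1.34. Without it rsCBE was higher by 0.0404 (p = 0.00794, exact permutation test).

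J5 was used more in long joins of rsCBE than of WT. J5 is the J segment farthest from the V segments. In WT its share of long counts was 23.5%, 26.8%, 30.04%, 23.8% and 31.3% in replicates 1 to 5. In rsCBE it was 40.8%, 40.2%, 35.8%, 38.1% and 37.7%. Every rsCBE sample lay above every WT sample. The means were 27.1% ± 3.54 and 38.5% ± 2.03 (SD, n = 5), 11.4 percentage points apart (p = 0.00794 by exact permutation, the smallest that this design can give; adjusted over 5 J segments 0.0397). The call was lost with a limit of 33 nucleotides (adjusted p = 0.139, exact permutation test). It was also lost in 2 settings that could not keep a call of 1 J segment alone. With labels exchanged only within samples of 1 library or of 2 parts, J5 was at the smallest p possible. That was 0.0167 by exact permutation (adjusted p = 0.0833). With the replicate number as a block, p cannot go below 0.0625 (adjusted p = 0.208, exact sign-flip permutation). The difference was 15.4 points within the replicates given as 1 library (2 in each genotype) and 8.81 points within those given in 2 parts (3 in each genotype), where p cannot go below 0.333 and 0.1. When each clonotype was counted once the difference was 5.86 points and no longer passed (adjusted p = 0.119, exact permutation test).

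The other in-frame joins showed a J5 difference too, with 27.2% ± 3.42 in WT against 35.997% ± 0.891 in rsCBE (SD, n = 5). The J5 share of long joins minus that of other joins did not pass between genotypes (2.61 points, adjusted p = 0.853, exact permutation test). Without WT replicate 4 that difference was 0.685 points. None of the 5 J segments passed that test of the difference, and without WT replicate 4 only J3, at 0 in the long joins of every sample, did.

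J1, the J segment nearest the V segments, was 26.7% ± 8.67 of long counts in WT against 17.6% ± 3.41 in rsCBE (SD, n = 5; adjusted p = 0.0992, exact permutation test). WT replicate 4 stood at 41.3%, and the other WT samples at 18.3% to 26.4%. The J1 difference was -9.03 points over all samples and -5.37 without WT replicate 4. It passed without WT replicate 3, at -11.1 points, and with part b alone, at -9.20 points (adjusted p = 0.0198 for each, exact permutation test). J2 was 30.04% ± 7.79 and 29.1% ± 4.64, and J4 was 16.2% ± 2.55 and 14.7% ± 3.07 (SD, n = 5). Neither passed.

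Within samples, long joins used J1 less and J2 more than other in-frame joins. The J1 share was lower by a mean of 7.60 points, in 9 of 10 samples (exact sign-flip permutation p = 0.0176, adjusted 0.0293). The exception was WT replicate 4, at +11.8 points. The J2 share was 5.85 points higher, in 9 of 10 samples, again with WT replicate 4 as the exception at -5.06 (exact sign-flip permutation p = 0.0176, adjusted 0.0293). Leaving out any 1 sample other than WT replicate 4 (for J2, also other than rsCBE replicate 5) raised the adjusted p above the threshold, to between 0.0521 and 0.0586, and without WT replicate 4 it was 0.00977 for both. J5 was higher in long joins by 1.22 points without passing (adjusted p = 0.408, exact sign-flip permutation), and without WT replicate 4 by 2.22 points, which passed (adjusted p = 0.0146, exact sign-flip permutation). Against joins of 27 nucleotides alone, neither passed (adjusted p = 0.0977 for both, exact sign-flip permutation). The J segments differ in germline length, which enters the CDR3 length that chose the joins. By length, the mean J2 share was 24.6% at 27 nucleotides, 26.8% at 30 and 46.4% at 33, and the J1 share 29.2%, 24.1% and 12.5%.

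J3, which is classed as not functional in the mouse, had 0 of 8018 long counts, which allows a share of up to 0.0374%, and 28 counts among other in-frame joins. The within-sample test passed for J3 (adjusted p = 0.0195, exact sign-flip permutation), with every long value at 0 and a J3 mean of 0.0563% in other joins. WT replicate 4 was at 0.375% there, and without it the mean was 0.0209% ± 0.0144 (SD, n = 9), under the limit that 0 long counts allow. Without that sample a lower J3 share in long joins was therefore not detectable at this depth.

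**Figure D3:**
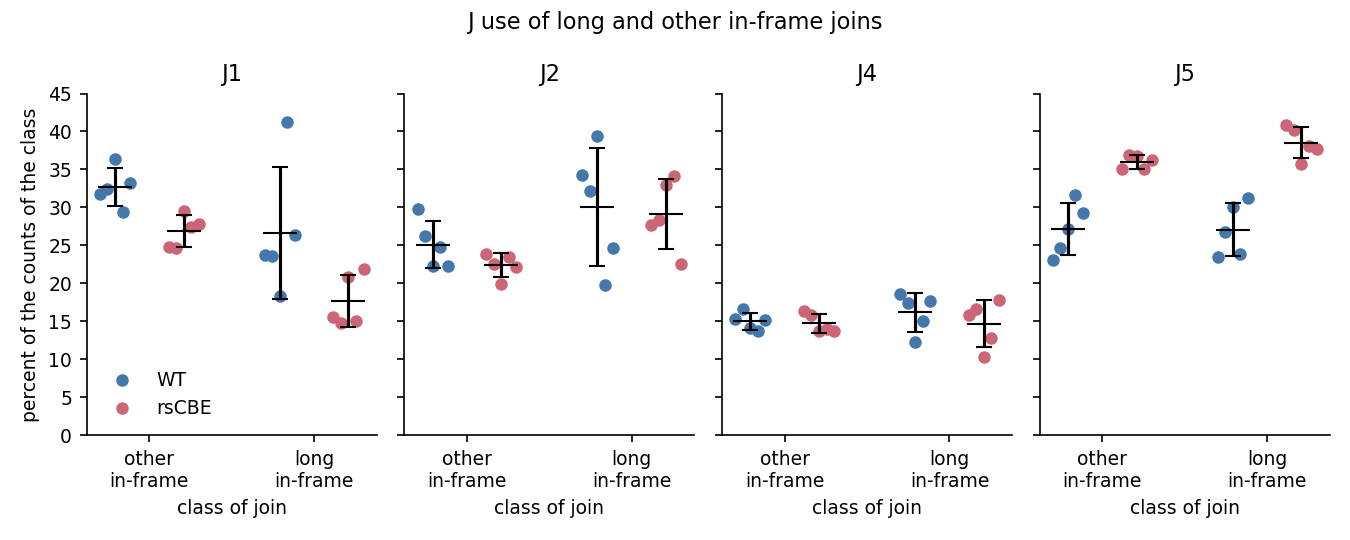
Percent of counts with J1, J2, J4 and J5 among other in-frame joins and long in-frame joins, 1 point per sample, WT in blue and rsCBE in red, with mean ± SD (n = 5). J5 is higher in rsCBE in both classes, from 35.8% to 40.8% against 23.5% to 31.3% among long joins, and WT replicate 4 is the high J1 point at 41.3%.

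Long joins were found with 105 of the 113 V segments that had in-frame counts. The 12 most used V segments held 45.8% of long counts on average. Igkv8-16 had a mean of 6.09% ± 4.36 of long counts (SD, n = 10), Igkv8-18 5.69% ± 1.87, Igkv5-43 with 4.37% ± 2.91 and Igkv5-48 with 4.26% ± 1.31. Igkv4-50, Igkv1-88, Igkv17-127, Igkv17-121, Igkv1-117, Igkv1-110, Igkv3-2 and Igkv4-92 followed, from 3.93% down to 2.18%. Igkv8-16 varied most between samples, from 1.68% in WT replicate 2 to 14.5% in WT replicate 4. Without the latter Igkv8-18 was ahead, with 5.87% ± 1.89 against 5.16% ± 3.39 for Igkv8-16 (SD, n = 9), and by total counts Igkv8-18 had 442, Igkv5-43 420 and Igkv8-16 374.

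V use of long joins differed from that of other in-frame joins of the same samples. The germline V end is part of the CDR3 whose length chose the joins, so this comparison is partly fixed by the rule. Of 46 V segments that passed the filter on low counts, 25 were called by edgeR's quasi-likelihood test with the sample as a block, or 54.3% (percent called in either direction). Of these 12 were higher in long joins (26.1%) and 13 lower (28.3%). The median log2 difference over the 46 was -0.18. With TMM scaling factors that median moved to -0.29, and the calls were 8 higher and 14 lower. With each clonotype counted once 9 of 19 tested were called, 8 of them among the 25. In the samples given as 1 library alone 31 of 82 were called, 20 of them among the 25, and in those given in 2 parts alone 7 of 46 were, all of them among the 25. In the latter Igkv4-92 and Igkv4-50 had log2 differences of 1.19 and 1.16 without a call, close to those over all samples, and Igkv4-55 and Igkv1-110 had 0.41 and 0.34, also without a call.

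Igkv8-18 was nearly always long. Its germline end has 28 bases, cagcacaatcatggcagctttctccccc, and 442 of its 451 in-frame counts were long. It was 5.69% of long counts and 0.00899% of other in-frame counts, and was higher in long joins in 10 of 10 samples. At the other end, Igkv8-21, with a germline end of 20 bases, had 1 long count of 2533. Igkv8-27, with 18 bases, had 10 of 3958. These 3 segments follow the length rule by construction, since the germline end is part of the CDR3.

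Over all 10 samples the mean long share rose with the length of the germline end. It was 1.04% ± 0.782 for the 9 segments with 22 bases or fewer, 7.19% ± 1.14 for the 74 with 23, 11.03% ± 1.75 for the 24 with 25, and 98.5% ± 2.10 for the 2 with 28 or more (SD over 10 samples). The 2 segments with 24 bases differed, with 4.63% ± 3.54 for Igkv16-104 and 17.4% ± 8.60 for Igkv4-92 (SD, n = 10). Together they gave 8.93% ± 6.67, and 7.01% ± 2.94 without WT replicate 4, which was at 26.2% (SD, n = 10 and 9). The place of the class of 24 bases in the order therefore rested on 1 sample.

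**Figure D4:**
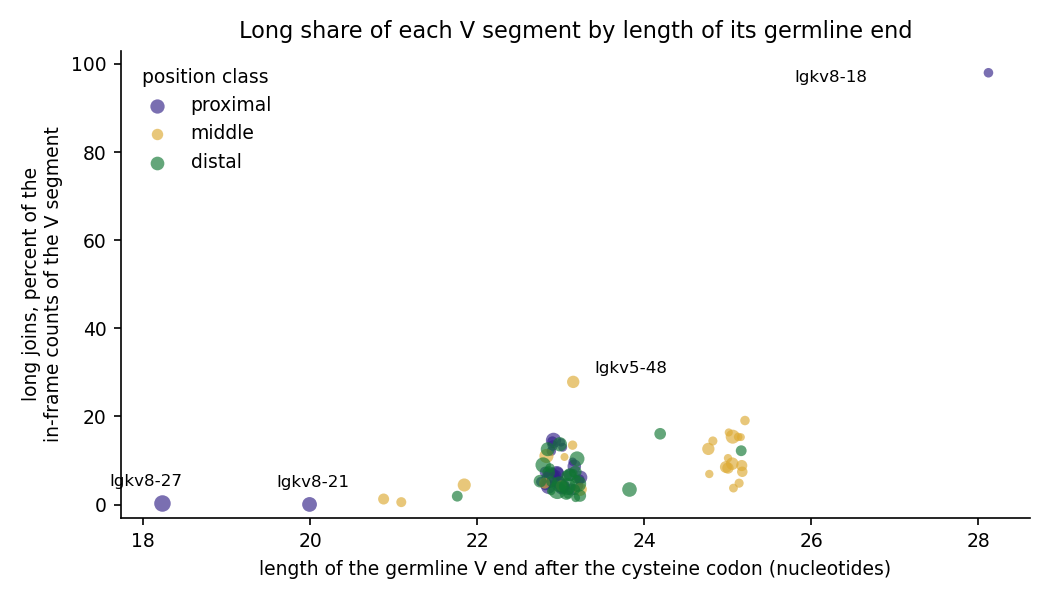
Long joins as a percent of the in-frame counts of each V segment, pooled over samples, against the length of its germline end in nucleotides, for the 82 segments with 200 or more in-frame counts; points are spread sideways for sight, their area grows with the counts, and colour gives the position class. Igkv8-18 stands at 98.0%, Igkv8-21 and Igkv8-27 near 0, and segments with 23 bases spread widely, with Igkv5-48 at the top.

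Segments with the same 23-base end still differed. Igkv5-48 had a long share of 25.6%, 25.3%, 29.3%, 15.4% and 23.1% in WT and 22.02%, 32.7%, 22.4%, 42.5% and 40.6% in rsCBE. It was higher in long joins in 10 of 10 samples (log2 difference 2.26, SE 0.286, edgeR adjusted p = 2.61e-13). Its germline end, caacaaagtaatagctggccaac, closes with aac. The end of Igkv8-16, cagcagcatttacacattcctcc, has the same length and closes with tcc, and 5.92% of the Igkv8-16 in-frame counts were long.

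The related Igkv5-43 was higher by 1.05 on the log2 scale (SE 0.264, edgeR adjusted p = 0.000534), in 8 of 10 samples. Igkv17-121 was higher by 0.93 (SE 0.271, edgeR adjusted p = 0.00257), in 9 of 10 samples. Igkv4-92 and Igkv4-50 were higher by 1.27 and 1.16, have ends of 24 and 25 bases, and kept the call without any 1 sample. Igkv4-91 and Igkv4-55 have ends of 25 bases and log2 differences of 0.88 and 0.75. An end longer than 23 bases adds to the CDR3 length that chose the joins. Igkv3-1 and Igkv1-110 have ends of 23 bases and log2 differences of 0.94 and 0.74. These last 4 segments passed less firmly. With 1 sample left out in turn the call was lost in 4 of 10 runs for Igkv4-91 (edgeR adjusted p 0.0577 to 0.0926) and in 5 of 10 for Igkv4-55 (0.0566 to 0.143). It was lost in 5 of 10 for Igkv1-110 (edgeR adjusted p 0.0673 to 0.120) and in 3 of the 9 runs that tested Igkv3-1 (0.0642 to 0.114). All 4 calls were lost with no filter on low counts (edgeR adjusted p 0.0575 to 0.0897). Those of Igkv4-55 and Igkv1-110 were also lost with TMM (edgeR adjusted p = 0.0743 and 0.0817), those of Igkv4-91 and Igkv4-55 without clonotypes of 1 count (0.0569 and 0.421), and that of Igkv1-110 with each clonotype once (0.508). With a limit of 33 nucleotides in place of 30, Igkv5-48 and Igkv1-110 were lower in long joins, with log2 differences of -1.62 and -1.57 (edgeR adjusted p = 0.0436 and 0.0276), and Igkv5-43 turned to -0.61 without a call (edgeR adjusted p = 0.357). Igkv17-121 fell short of a call at that limit, with 0.20 (edgeR adjusted p = 0.756), and in the samples given in 2 parts alone, with 0.78 (0.319). Igkv5-43 had 0.90 in the latter (edgeR adjusted p = 0.314).

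Igkv14-126 was lower in long joins in 9 of 10 samples (log2 difference -1.44, SE 0.376, edgeR adjusted p = 0.000737). Igkv19-93 was 1.996% ± 1.07 of long and 4.44% ± 1.06 of other counts (SD, n = 10), lower in 10 of 10 samples (log2 difference -1.27, SE 0.264, edgeR adjusted p = 2.11e-05). Igkv12-46, Igkv3-7, Igkv8-30, Igkv16-104, Igkv9-120 and Igkv1-135 were lower too, with log2 differences of -1.27, -1.19, -1.11, -1.09, -0.97 and -0.90. All of these have germline ends of 23 bases except Igkv16-104, with 24. None of these 8 calls was lost with 1 sample left out, and some were lost under other settings. With a limit of 33 nucleotides Igkv16-104 was at -0.17 (edgeR adjusted p = 0.756), and Igkv12-46 and Igkv9-120 were at -1.23 and -0.97 without a call (0.0775 and 0.137). With each clonotype counted once Igkv9-120 was at -0.36 (edgeR adjusted p = 0.139) and Igkv1-135 at -0.30 (0.213). In the samples given as 1 library alone Igkv3-7, Igkv8-30 and Igkv1-135 were at -0.66, -0.55 and -0.36 (edgeR adjusted p = 0.314, 0.140 and 0.283). In those given in 2 parts alone Igkv14-126, Igkv3-7, Igkv8-30, Igkv16-104 and Igkv9-120 lost the call, with log2 differences from -2.04 to -0.92 (edgeR adjusted p 0.0632 to 0.314). Without clonotypes of 1 count Igkv8-30 was at -1.03 (edgeR adjusted p = 0.0562).

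By family, both tested Igkv17 segments and 2 of 3 tested Igkv5 segments were higher in long joins, with medians of 0.79 and 1.05 on the log2 scale beside -0.18 over all 46. Over all 46, 26.1% were called higher and 28.3% lower, and families of so few tested segments are described without a test. Of 10 tested Igkv4 segments 4 were higher and 1 lower (median 0.31). Of 8 tested Igkv8 segments 1 was higher, Igkv8-18, and 3 were lower (median -0.42). Igkv4 held the largest share of long counts of any family, 21.6% ± 3.54 beside 15.4% ± 2.15 of other counts (SD, n = 10).

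No single V segment passed between genotypes. Of 26 V segments tested for their share of long counts, 0 were called by edgeR's quasi-likelihood test (0.0%) and 0 by DESeq2, and 3 had an unadjusted p under 0.05. These 26 held 68.1% of long counts, and 79 further V segments with long joins were too sparse to test. The smallest p belonged to Igkv1-135, with 0.785% ± 0.555 of long counts in WT against 2.99% ± 1.73 in rsCBE (SD, n = 5; log2 difference 1.76, SE 0.635, edgeR adjusted p = 0.0987). Igkv8-19 had 0.976% and 3.34% (log2 difference 1.60, edgeR adjusted p = 0.0987). Igkv1-88 had 5.30% and 2.24% (log2 difference -1.11, edgeR adjusted p = 0.345), and 14.0% in WT replicate 4.

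The long share of each V segment's own in-frame counts was also tested, which sets aside how often the segment is used. Here 0 of 26 were called by edgeR (0.0%), 2 by DESeq2, and 4 had an unadjusted p under 0.05. Igkv1-135 was long in 2.31% of its counts in WT and 6.63% in rsCBE, Igkv3-12 in 4.46% and 12.6%, and Igkv5-39 in 3.64% and 7.88% (edgeR adjusted p = 0.228 for each). The 2 that DESeq2 called were Igkv1-135 and Igkv5-39. Without WT replicate 4, 2 of 32 segments tested were called by edgeR, Igkv5-39 and Igkv14-111, and without WT replicate 2, 1 of 25 was, Igkv14-111. Igkv14-111, named here after its values were seen, did not pass the filter on low counts with all samples and so was not among the 26. With a WT sample left out it passed the filter through rsCBE samples, where it was high. Its shares of long counts were 0% to 1.03% in WT and 0.666% to 2.62% in rsCBE. Its calls are therefore not read as a difference between genotypes, and the values are a description. It was long in 2.24% ± 2.02 of its counts in WT against 10.7% ± 3.20 in rsCBE (SD, n = 5).

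Grouped by position along the locus, V use of long joins differed between genotypes under the main test and lost the call under several alternatives. The number in a V segment's name falls towards the J segments, and 1 to 45 is called proximal here, 46 to 90 middle and 91 or more distal. The middle class was 31.7%, 28.3%, 33.9%, 36.05% and 30.2% of long counts in WT. In rsCBE it was 23.4%, 23.7%, 24.9%, 28.8% and 18.7%. In rsCBE, replicate 4 reached into the WT range, and the other samples lay below it. The means were 32.01% ± 3.05 and 23.9% ± 3.599 (SD, n = 5; adjusted p = 0.0476, exact permutation test). The proximal class was 35.0% ± 3.39 in WT against 41.2% ± 4.95 in rsCBE (SD, n = 5; adjusted p = 0.0476, exact permutation test), with rsCBE replicate 3 highest at 49.8%. The distal class was 33.001% ± 4.56 and 35.0% ± 6.82 (SD, n = 5; adjusted p = 0.563, exact permutation test). The middle call was kept without WT replicate 2 or 5 or rsCBE replicate 1 or 4, and lost without any other single sample (adjusted p 0.0595 to 0.0714). The proximal call was kept without WT replicate 5 or rsCBE replicate 1 and lost without any other (adjusted p 0.0595 to 0.119). Both calls were lost with part b alone (adjusted p = 0.0595 for each, exact permutation test), and with part a alone the middle call was kept (adjusted p = 0.0476) and the proximal call lost (adjusted p = 0.0595). They were also lost when labels were exchanged only within samples of 1 library or of 2 parts (adjusted p = 0.05 for each, exact permutation test), where the middle class was at the smallest p possible, 0.0167. With the replicate number as a block, where p cannot go below 0.0625, neither was kept (adjusted p = 0.188 for each, exact sign-flip permutation). With each clonotype counted once, neither class passed (adjusted p = 0.0952 for the middle and 0.202 for the proximal class, exact permutation test).

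Other in-frame joins had 19.8% ± 2.16 middle V segments in WT against 19.1% ± 0.985 in rsCBE (SD, n = 5). The excess of the middle class in long over other joins was therefore 12.2 points ± 3.10 in WT against 4.79 ± 3.68 in rsCBE (SD, n = 5). The comparison was added after the differences among long joins were seen and largely restates them, since other joins differed by only -0.667 points for the middle and 0.930 for the proximal class. The difference was -7.45 points for the middle class (p = 0.00794, adjusted 0.0238, exact permutation test) and 5.24 for the proximal class (p = 0.0317, adjusted 0.0476, exact permutation test). With each clonotype counted once both passed (adjusted p = 0.0357 for each, exact permutation test). Neither passed with labels exchanged only within samples of 1 library or of 2 parts (adjusted p = 0.05 and 0.075, exact permutation test). The middle class was there at the smallest p possible, 0.0167. Neither passed with the replicate number as a block (adjusted p = 0.0938 for each, exact sign-flip permutation), where p cannot go below 0.0625. With a limit of 33 nucleotides neither passed (adjusted p = 0.679 for each, exact permutation test). With 1 sample left out in turn the middle class always passed, and the proximal class passed only without WT replicate 3 or rsCBE replicate 4. Most Igkv4 segments are in the middle class, and Igkv4 was 24.3% ± 2.59 of long counts in WT against 18.9% ± 1.95 in rsCBE (SD, n = 5). Igkv1-88 and Igkv4-50 had the largest drops in mean among middle segments, with differences of -3.06 and -1.08 points, and neither passed alone. Both moved with 1 sample. Without WT replicate 4, at 14.0%, the Igkv1-88 difference was -0.901 points, and without WT replicate 5, at 10.9%, the Igkv4-50 difference turned to 0.521 points.

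**Figure D5:**
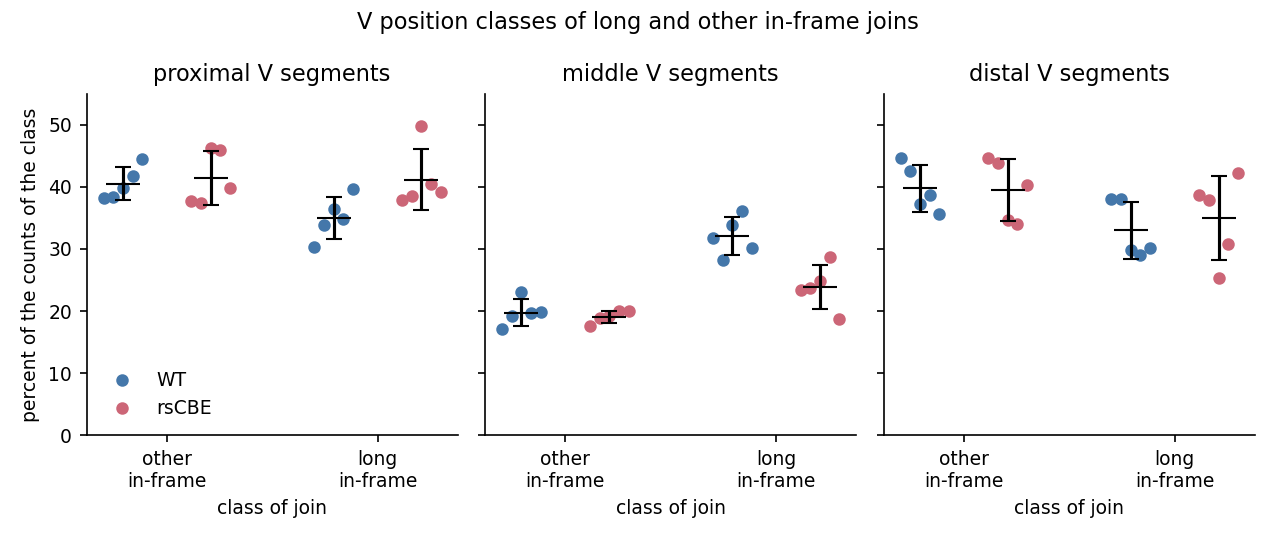
Percent of counts with proximal, middle and distal V segments among other and long in-frame joins, 1 point per sample, WT in blue and rsCBE in red, with mean ± SD (n = 5). Among long joins the middle class is 28.3% to 36.05% in WT and 18.7% to 28.8% in rsCBE, while among other joins the means are 19.8% and 19.1%.

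In the pooled list of distinct long clonotypes most were seen in a single sample. Of 1992, 1400 were in 1 sample (70.3%), 257 in 2, and 5 in all 10. Of 10165 other in-frame clonotypes, 77.2% were in 1 sample and 150 were in all 10. Within a sample most were shared: 60.04% ± 4.70 of its long clonotypes were also in another sample, beside 58.3% ± 5.37 of its other in-frame clonotypes (SD, n = 10). By counts the order was the other way, with 76.1% ± 3.30 of long counts and 90.8% ± 1.67 of other in-frame counts in shared clonotypes (SD, n = 10). Sharing differed with the make-up of the join. Of 279 complete germline clonotypes 46.2% were in 2 or more samples, as were 44.0% of 323 that were only trimmed and 34.6% of 700 with P bases alone. Of 682 with other added bases 11.3% were. In that order the classes held 2631, 2024, 2214 and 1129 counts. A clonotype with few counts is less likely to be seen in 2 samples, so abundance was not separated from make-up. These classes come from the same samples, and the shares are given without a test.

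Counts per long clonotype were 2.76 ± 0.838 in WT against 2.51 ± 0.576 in rsCBE (SD, n = 5; p = 0.563, exact permutation test). The samples given as 1 library had 1.88 to 2.03 and those given in 2 parts 2.56 to 3.75. The 33-nucleotide class was led by Igkv8-18, whose 3 most frequent clonotypes were a join to J2, at 0.9998% of long counts, and joins to J5, at 0.806% and 0.639%. Of the longest joins, a 39-nucleotide join of Igkv8-18 to J5 was found in 5 samples with 10 counts: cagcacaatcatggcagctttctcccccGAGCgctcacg, with its 4 P bases in capitals.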

How the data were processed

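The authors' deposited table holds whole-number counts per V call, J call and CDR3 for 16 libraries of 10 samples. Per the submitters' processing notes the build was mm10. The caller, its germline set and its filters are not given in the sources used here, and a miscalled V segment would change its germline end. The 2 parts of 6 replicates were added, and the other 4 replicates were single libraries. Germline V ends and J starts were read from GENCODE M21 transcripts (GRCm38), and matches were extended from each end with a mismatch penalty of 3. P bases had to mirror an untrimmed end, so a chance match counts as P. A further 20 long counts had no germline end.

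Shares were tested over samples by exact permutation (two-sided), or by sign flips within samples, with Benjamini-Hochberg adjustment over each family. V segments were tested with edgeR 4.0.16 (quasi-likelihood, R 4.3.3, filterByExpr, totals as library sizes), with DESeq2 1.42.0 as an alternative, and a threshold of 0.05. The tests were tested on simulated data. Named V segments were the 12 with the highest share, up to 10 that rose and 10 that fell among those called with a share of 0.5% or more, and the 3 with the smallest p between genotypes. The members and lists were chosen with earlier results of these data known. Samples held 3109 to 24083 counts and 172 to 1212 long counts. Intervals and limits cover counting error only.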

Additional observations from a re-analysis of the deposited data

Results flagged for a closer look

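Samples far from the others of their genotype were looked for in 62 groups of 5 values, and 4 were found, where chance gives about 3.10. WT replicate 4, the shallowest sample with 172 long counts, was one of them in J5, where its long share minus its other in-frame share was -7.80 percentage points and the other WT samples lay between 0.348 and 2.83. It was also far from the others in proline codons per long count, at 1.53 beside 1.29 to 1.34. The proximal V share of long counts in rsCBE replicate 3 was 49.8%, and the other rsCBE samples lay between 37.9% and 40.5%. Igkv17-121 was 5.45% of long counts in rsCBE replicate 2 and 3.48% to 3.97% in the other rsCBE samples.

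The position of the V segments used by long joins, taken against other in-frame joins of the same sample, differed between genotypes by the exact permutation test, in a comparison added after the differences among long joins were seen. It largely restates them, and neither class passed when labels were exchanged only within samples of 1 library or of 2 parts (adjusted p = 0.05 for the middle and 0.075 for the proximal class, exact permutation test). The middle class was there at the smallest p possible, 0.0167. The difference of rsCBE minus WT was -7.45 points for the middle class (higher in long joins in 9 of 10 samples) and 5.24 points for the proximal class (lower in long joins in 7 of 10 samples).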

How the results depend on the processing

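Counting each clonotype once left J5 among long joins at 5.86 points, the proximal class at 3.61 and the middle class at -6.70. In that setting 0 J segments and 0 position classes were called. Of 19 V segments tested long against other, 9 were called. J2 among long joins turned to 2.95, the J5 within-sample difference to -1.01, the 36-nucleotide class to 0.0303 points and proline to 0.0137. With a limit of 33 nucleotides the values were 9.89, 7.15 and -5.14 (0 and 0 called), J2 was 4.51, distal -2.01, proline 0.0195, the within-sample J5 -0.401 and J4 -1.96, the J1 genotype difference 2.61, and Igkv5-48, Igkv5-43 and Igkv1-110 were -1.62, -0.61 and -1.57 (log2). Without clonotypes of 1 count the within-sample J1 and J2 differences were -7.16 and 5.57 (0 called), J4 was -0.440 and the class of 39 or more 0.00780. Against 27-nucleotide joins they were -7.01 and 4.995 (0 called), with J4 at -0.0923. With part a alone the long share differed by 1.22 points, within-sample J1 and J2 were -7.54 and 5.58 (neither called; the 1 called was J3), proximal 6.00 (1 class called) and proline 0.0107. With part b alone 2 J segments and 0 classes were called, proximal was 6.53, middle -6.91, the 36-nucleotide class 0.000386, 39 or more 0.0251 and added bases 0.111.

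Exchanging labels only within samples of 1 library or of 2 parts left the same differences uncalled (J5 11.4 and middle -8.12, both at the smallest p this allows, 0.0167, and proximal 6.17; 0 and 0 called). Samples of 1 library alone gave J5 15.4, within-sample J1 -8.98 and J2 5.01, proximal 6.14, middle -6.41 (0 called in each), the class of 39 or more 0.0189, J2 by genotype -0.423, proline 0.0210, added bases 0.0668 and counts per clonotype 0.0698. Samples of 2 parts alone gave J5 8.81, J2 1.94, within-sample J1 -6.69 and J2 6.41, proximal 6.18 and middle -9.26 (0 called in each). Of 46 V segments tested there long against other, 7 were called. Neither subset is large enough to pass between genotypes.

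With the replicate number as a block, J5 was 11.4 points, proximal 6.17 and middle -8.12, with 0 and 0 called, in a design of 5 pairs whose p cannot go below 0.0625. Samples of the same number gave correlations of 0.645, 0.512, -0.0259, -0.00621 and 0.282 between genotypes over 26 V segments. The labels do not say that the numbers pair the samples, and these correlations do not settle it. The block also ended both calls of the position classes taken against other in-frame joins (adjusted p = 0.0938 for each, exact sign-flip permutation), and changed no other call.

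Leaving out each sample in turn gave 1 to 2 J segments called among long joins, J5 from 10.5 to 12.5, within-sample J1 from -9.77 to -6.44, J2 from 4.60 to 7.06 (1 to 4 called), proximal 3.996 to 7.31, middle -9.34 to -6.83 (0 to 2 called), the long share 0.376 to 1.19, proline -0.0189 to 0.0404, J2 among long joins -3.48 to 1.42, the 36-nucleotide class -0.0384 to 0.0157, 39 or more -0.00814 to 0.0128, J1 and J2 by genotype -6.23 to 1.25 and -0.729 to 4.80 (0 to 1 called), and 0 to 2 V segments for the long share by genotype (2 by DESeq2). The V count long against other ran from 18, as in 18 of 48 tested without WT replicate 2, to 32 of 68 without WT replicate 4. For the position classes taken against other in-frame joins, alternatives added after the data were seen gave proximal 5.94 and middle -4.00 with a limit of 33 nucleotides (distal -1.94), proximal 5.18 with part a alone, 5.24 and -7.45 with the block or with labels exchanged within, 6.84 and -6.50 (distal -0.338) in samples of 1 library, 4.17 and -8.09 in samples of 2 parts, all uncalled, and 4.28 to 6.53 and -8.45 to -5.94 with 1 sample left out. The cause was not tested. At this depth 79 V segments with long joins were not tested.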
